A study of Mus musculus with 8 samples.

Results

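Sphingolipid and ceramide metabolism was followed as a list of 43 mouse genes, given by 48 names once the older Lass names of the ceramide synthases are counted. The list covers synthesis (19 genes), degradation (21 genes), glycosylation (2 genes) and lipid transport (1 gene). A gene was a member when a probe with its symbol was detected, at a detection p under 0.05, on at least 2 of 8 arrays. This left 35 genes with 46 probes, among 9343 genes with 13131 probes that passed the same filter. Of the other 8 genes, Ormdl1, Ormdl2, Sgms2, Galc and Gla had probes below the detection limit, and no probe analysed here carried the symbol Cers3, Smpd4 or B4galt6. The 35 members comprised 15 genes of synthesis, 18 of degradation, Ugcg for glycosylation and Abca12 for transport. Of these members, 31 were detected on all 8 arrays by the probe used, whereas Sgpp2 and Degs2 passed the filter only through the wild-type arrays with FA, so that a high value there was a condition of their membership.

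Epidermal RNA was hybridized to Illumina MouseRef-8 v2.0 BeadChips, 2 arrays in each of the groups REDD1 KO with FA, REDD1 KO with vehicle, w.t. with FA and w.t. with vehicle, with 1 animal per array. All animals were females of 7 weeks with hair follicles in telogen, shaved before treatment. FA (fluocinolone acetonide, a glucocorticoid) was given topically in acetone at 2 µg per animal, vehicle was acetone alone, and RNA was isolated after 24 h. The comparisons ask how FA changed transcripts of sphingolipid enzymes and whether loss of REDD1, a stress-induced inhibitor of mTOR, altered this. REDD1 KO animals lacked exon 2, which a LacZ/neo cassette replaced, in all cells. The w.t. animals were isogenic B6x129 mice and dorsal skin was used per the methods, but in the labels the strain is B6D2, the site is the ear (posterior lobe) and the controls are untreated.

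Sphingolipid synthesis starts with serine palmitoyltransferase, which joins serine and palmitoyl-CoA, and continues through dihydroceramide to ceramide. Ceramide is converted to sphingomyelin or glucosylceramide, and sphingomyelinases, glucosylceramidases and sialidases release it again or trim its glycosylated forms. Ceramidases split ceramide into a fatty acid and sphingosine, whose phosphate is a signaling lipid. In epidermis, glucosylceramides and sphingomyelin are packed into lamellar bodies of upper keratinocytes and secreted, and the ceramides made from them form the lipid barrier of the cornified layer.

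Promoters of the pair of members detected only with FA in w.t. epidermis, and of the ceramidase Acer1, which fell with FA in both genotypes, are shown because FA acts through the glucocorticoid receptor. The sequences (RefSeq, build GRCm38.p6) run 5′ to 3′ on the strand of the gene over 250 bases before and 50 bases after its start. They are Sgpp2 at chr1:78310096-78310395 on the plus strand, Degs2 at chr12:108702257-108702556 on the minus strand and Acer1 at chr17:56982077-56982376 on the minus strand. Capitals mark the 6-base motif TGTTCT, or AGAACA on the opposite strand, which is part of the element bound by the glucocorticoid receptor.
Sgpp2: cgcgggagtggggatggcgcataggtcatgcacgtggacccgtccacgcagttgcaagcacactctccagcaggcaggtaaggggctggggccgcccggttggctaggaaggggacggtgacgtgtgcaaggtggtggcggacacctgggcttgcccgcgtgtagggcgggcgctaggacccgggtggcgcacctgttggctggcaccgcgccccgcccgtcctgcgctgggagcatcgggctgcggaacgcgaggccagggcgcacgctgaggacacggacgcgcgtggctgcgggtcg
Degs2: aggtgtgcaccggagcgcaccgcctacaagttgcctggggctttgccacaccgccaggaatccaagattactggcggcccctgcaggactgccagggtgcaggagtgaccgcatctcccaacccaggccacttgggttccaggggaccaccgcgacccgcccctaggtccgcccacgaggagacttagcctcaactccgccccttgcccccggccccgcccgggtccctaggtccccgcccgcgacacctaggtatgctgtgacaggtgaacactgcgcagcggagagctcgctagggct
Acer1: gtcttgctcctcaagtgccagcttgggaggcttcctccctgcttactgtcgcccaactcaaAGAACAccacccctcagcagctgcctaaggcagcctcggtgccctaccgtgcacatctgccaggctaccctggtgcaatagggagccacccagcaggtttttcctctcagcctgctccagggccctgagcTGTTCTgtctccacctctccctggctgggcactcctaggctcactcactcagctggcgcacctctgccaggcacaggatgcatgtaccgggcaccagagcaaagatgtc
The Acer1 window held 2 matches, which began 189 and 59 bases before the start, and the windows of Sgpp2 and Degs2 held 0. The motif was found in 6233 of 32851 promoters of the same length (19.0%) and in 4 of 44 promoters of the tested members (9.09%). The median GC content was 52.7% over all promoters and 60.2% over those of the members. Whether the motif shares differ beyond base composition was not tested. Among 14 members called in at least 1 comparison, 13 had a promoter in the table, and Acer1 alone of these held the motif.

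Ddit4, which encodes REDD1, gave log2 signals of 7.88 and 8.35 in REDD1 KO FA arrays and 7.42 and 7.09 in REDD1 KO vehicle arrays, against 10.98 and 11.14 in w.t. FA arrays and 10.08 and 9.16 in w.t. vehicle arrays. All REDD1 KO arrays were thus below all w.t. arrays, though whether this probe lies in the replaced exon was not tested. Per array, 11429 to 11998 of 25697 probes were detected, and replicate arrays correlated at r of 0.976 to 0.990 over probes. Keratinocyte markers were present, with 16 of 20 genes of terminal differentiation and 9 of 9 basal genes tested. The first REDD1 KO FA array stood apart by 7 skeletal muscle genes, whose summed signal was 25569 there and 218 on its replicate, against 365 to 2743 in the other groups. The same array had the highest mean log2 signal of adipocyte markers (3 of 7 tested), 5.71 against 4.53 on its replicate and 4.23 to 4.63 in the other groups, while Fabp4, Plin1 and Cidec did not pass the filter. The log2 signals below are the deposited values, differences are in log2 units with 95% intervals, and adjusted p-values come from limma with 1 mean per group on 8 arrays and Benjamini-Hochberg adjustment over 13131 probes. A member was called at an adjusted p under 0.05.

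With FA, a minority of the sphingolipid genes was called in each genotype, among them sphingomyelinases, glycosphingolipid hydrolases, a ceramidase and desaturases. In REDD1 KO epidermis, 3 of 35 members rose (Degs1, Smpd2 and Gba2) and 1 fell (Acer1), where 2.17% of all tested probes were called higher and 2.34% lower. In w.t. epidermis, 6 members rose (Degs2, Smpd3, Sgpp2, Gba2, Neu2 and Abca12) and 1 fell (Acer1), where 3.18% of all probes were called higher and 3.17% lower. As shares of the members, these were 8.57% higher and 2.86% lower in REDD1 KO and 17.1% higher and 2.86% lower in w.t. epidermis. The members were called by 1 probe each, and counted over all 46 member probes the shares called higher were 6.52% in REDD1 KO and 13% in w.t. epidermis. The median change over the members was 0.08 in REDD1 KO and 0.09 in w.t. epidermis, against 0 and -0.02 over all probes. Gba2 and Acer1 were called in both genotypes, which is 2 of 4 REDD1 KO calls and 2 of 7 w.t. calls (28.6%). Without Sgpp2 and Degs2, which were admitted by the w.t. FA arrays, 3 of 33 members rose in REDD1 KO (9.09%) and 4 of 33 in w.t. epidermis (12.1%), with medians of 0.01 and 0.07. By role, 1 of 15 synthesis members was called in each genotype, and the one in w.t. epidermis was Degs2.

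Averaged over both genotypes (4 FA arrays against 4 vehicle arrays), 9 members rose and 3 fell, where 6.11% of all probes were called higher and 6.98% lower. These were 25.7% and 8.57% of the members, or 19.6% and 6.52% of their probes. Without Sgpp2 and Degs2, 7 of 33 rose (21.2%). This average contains both FA effects and is not separate evidence for either. It added the rise of Acer2 and the falls of Cers2 and Glb1 to the genes named above. By role, the average called 2 of 15 synthesis members higher and 1 lower, and 6 of 18 degradation members higher and 2 lower. Degs2 is among these synthesis rises and Sgpp2 among these degradation rises, and the w.t. FA arrays had admitted both. No contrast between roles is read from these counts. Without the first REDD1 KO FA array, the calls numbered 2 in REDD1 KO, 7 in w.t. epidermis and 10 in the average. The remaining 21 members were called in none of the 6 comparisons, with FA changes between -1.42 and 0.31 in REDD1 KO and between -0.53 and 0.63 in w.t. epidermis.

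**Figure D1:**
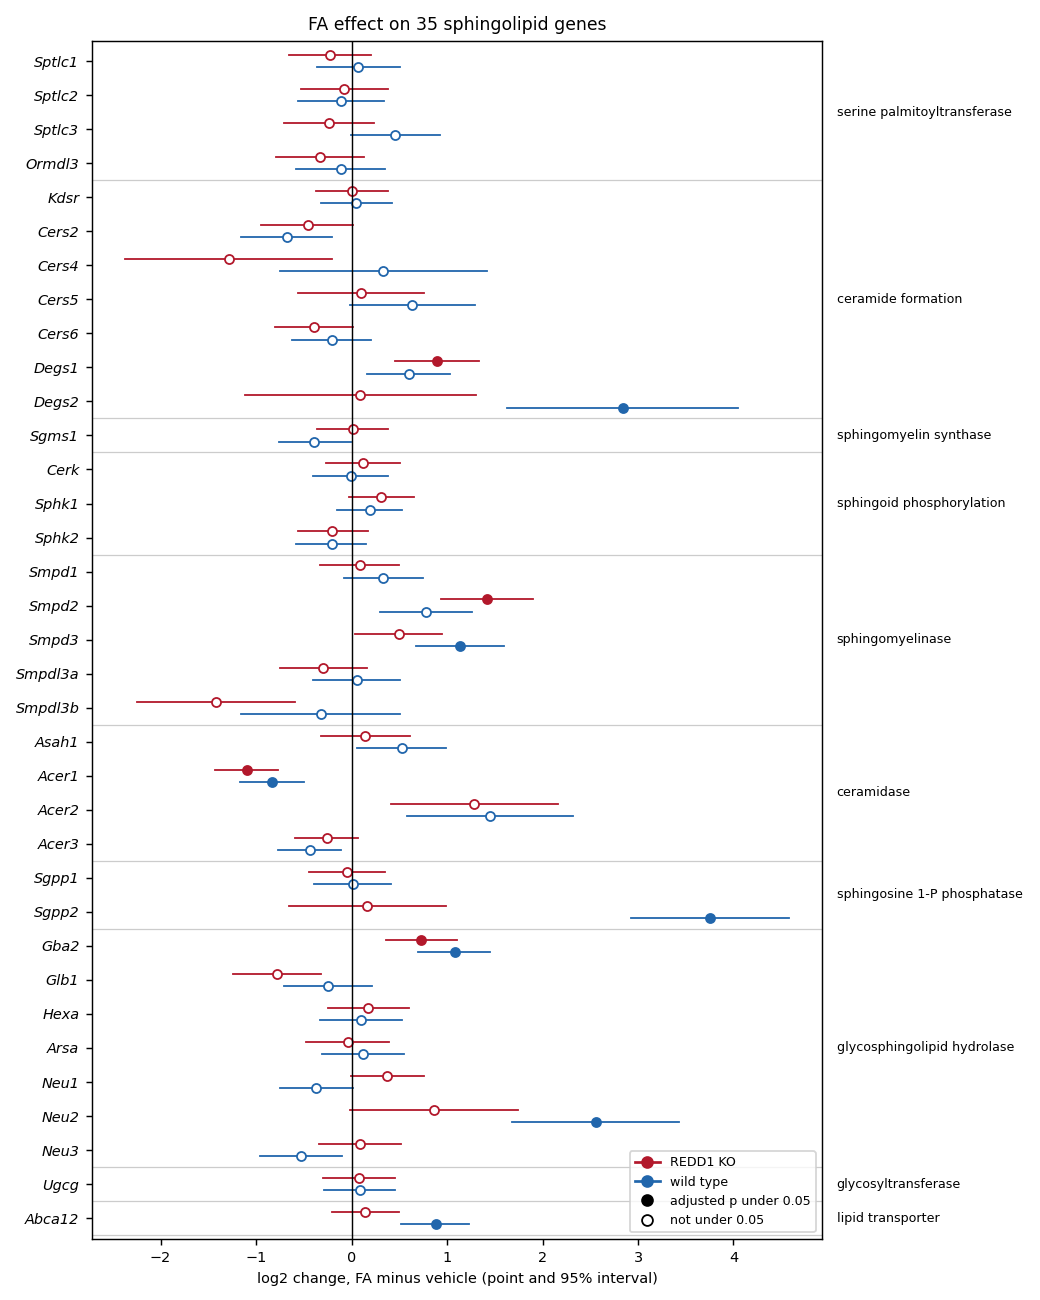
Log2 change with FA (FA minus vehicle, x axis) of the 35 members (rows, grouped by role), as point and 95% interval for REDD1 KO (red, upper) and w.t. epidermis (blue, lower), 2 arrays per group. Filled points have an adjusted p under 0.05, of which there are 4 in REDD1 KO and 7 in w.t. epidermis, with Sgpp2, Degs2 and Neu2 in w.t. epidermis above 2.5.

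No subunit or regulator of serine palmitoyltransferase was called with FA in either genotype. The 4 members of this step, Sptlc1, Sptlc2 and Sptlc3 (subunits of the enzyme) and Ormdl3 (its inhibitor), changed by -0.33 to -0.08 in REDD1 KO and by -0.11 to 0.46 in w.t. epidermis. Sptlc3 had log2 signals of 6.13 and 6.02 in REDD1 KO FA arrays, against 6.28 and 6.35 in REDD1 KO vehicle arrays. The w.t. arrays had 6.62 and 6.90 with FA, against 6.02 and 6.58 with vehicle. The FA arrays were thus the lower ones in REDD1 KO and the higher ones in w.t. epidermis, although the difference of the FA effects of -0.70 (interval -1.36 to -0.04) was not called (adjusted p = 0.487). A second Sptlc3 probe, detected on 2 arrays, gave 0.23 for this difference.

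Both dihydroceramide desaturases were called, each in 1 genotype. Degs1, which introduces the double bond that turns dihydroceramide into ceramide, had log2 signals of 12.06 and 12.12 in REDD1 KO FA arrays, against 11.04 and 11.37 in REDD1 KO vehicle arrays. Signals in w.t. epidermis were 11.76 and 12.03 with FA, against 11.12 and 11.48 with vehicle. All FA arrays were above all vehicle arrays in both genotypes. The rise was 0.89 (interval 0.45 to 1.33, adjusted p = 0.0364) in REDD1 KO epidermis and the change 0.60 (adjusted p = 0.107) in w.t. epidermis, with an average of 0.74 (adjusted p = 0.00887). The REDD1 KO call was lost without any 1 array of REDD1 KO or of w.t. FA (adjusted p between 0.0612 and 0.198), with no probe filter (0.0817) and in a fit of only 4 arrays (0.0658), and the average was called under every alternative run.

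Degs2, a desaturase that also hydroxylates dihydroceramide to phytoceramide, an abundant class in skin, was detected only with FA in w.t. epidermis. Its log2 signals were 4.55 and 4.20 in REDD1 KO FA arrays and 4.25 and 4.31 in REDD1 KO vehicle arrays, all below background. In w.t. epidermis they were 5.98 and 8.16 with FA, against 4.25 and 4.21 with vehicle (both vehicle arrays below background). The w.t. FA arrays were far apart, yet both were above the other 6. In w.t. epidermis the FA signal was at least 5.41-fold that of vehicle (fitted difference 2.84, interval 1.63 to 4.05), where the vehicle level is taken no lower than the dimmest detected signal. In REDD1 KO epidermis both groups were below background and no fold is given. Replicate standard deviations were 1.54 in w.t. FA arrays, against 0.24 in REDD1 KO FA, 0.04 in REDD1 KO vehicle and 0.03 in w.t. vehicle arrays. The interval and adjusted p-values pool these 4 groups and so understate the spread of the w.t. FA arrays. The adjusted p was 0.0179 among probes that passed the filter, which Degs2 did through these same w.t. FA arrays, and 0.0886 with no filter, so that its call rests on the filter. The w.t. call was also lost without w.t. vehicle array 1 or 2 (adjusted p = 0.0705 and 0.0759), without background correction (1.19, adjusted p = 0.102), with an offset of 50 (1.74, adjusted p = 0.0589) and with trended moderation (0.0938). The average of 1.47 (adjusted p = 0.0353) was lost under 11 of 17 alternatives (adjusted p up to 0.172), of which 6 left out 1 array.

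Among the ceramide synthases, which attach the fatty acid, Cers2 (very long chains) was called in the average alone. Its log2 signals were 7.79 and 8.16 in REDD1 KO FA arrays, against 8.22 and 8.66 in REDD1 KO vehicle arrays. In w.t. epidermis they were 7.77 and 8.11 with FA, against 8.70 and 8.54 with vehicle. FA arrays were the lower ones within each genotype, with an average change of -0.57 (interval -0.91 to -0.23, adjusted p = 0.0375), -0.46 in REDD1 KO and -0.68 in w.t. epidermis (adjusted p = 0.271 and 0.0952). The other Cers2 probes gave averages of -0.36 and -0.27 that were not called, and the call was lost without any of 6 single arrays (adjusted p up to 0.142) and with no probe filter (0.0852). Cers5, Cers6 (below background in REDD1 KO FA arrays) and Kdsr, the reductase that precedes the synthases, were not called with FA, with changes of 0.10, -0.39 and 0 in REDD1 KO and 0.63, -0.21 and 0.05 in w.t. epidermis.

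Transcripts of the neutral sphingomyelinases, which release ceramide from sphingomyelin, were called with FA, Smpd2 in REDD1 KO and Smpd3 in w.t. epidermis. Both were also called in the average, and sphingomyelin itself was not measured. Smpd2 (neutral sphingomyelinase 1) had log2 signals of 8.80 and 8.58 in REDD1 KO FA arrays, against 7.08 and 7.46 in REDD1 KO vehicle arrays. In w.t. epidermis it had 8.08 and 7.94 with FA, against 7.48 and 6.99 with vehicle. Every FA array was above every vehicle array. The rise was 1.42 (2.68-fold, interval 0.94 to 1.90, adjusted p = 0.00796) in REDD1 KO epidermis, the change was 0.78 (adjusted p = 0.0644) in w.t. epidermis, and the average was 1.10 (adjusted p = 0.00217). The REDD1 KO call was lost without REDD1 KO vehicle array 1 (1.23, adjusted p = 0.0577).

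Smpd3 (neutral sphingomyelinase 2) had log2 signals of 9.45 and 9.44 in REDD1 KO FA arrays, against 8.96 and 8.94 in REDD1 KO vehicle arrays. The w.t. arrays had 10.18 and 10.10 with FA, against 8.70 and 9.31 with vehicle. Its FA arrays were again all above the vehicle arrays. The rise was 1.14 (2.20-fold, interval 0.68 to 1.60, adjusted p = 0.0139) in w.t. epidermis and the change 0.50 (adjusted p = 0.219) in REDD1 KO epidermis, with an average of 0.82 (adjusted p = 0.00681). The w.t. call was lost without w.t. FA array 1 or 2 (adjusted p = 0.105 and 0.0835). The difference of the FA effects was 0.64 for Smpd2 and -0.65 for Smpd3 and was called for neither (adjusted p = 0.520 and 0.503).

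The other members of sphingomyelin metabolism were not called with FA. Sgms1, a sphingomyelin synthase, changed by 0.01 in REDD1 KO and -0.39 in w.t. epidermis, and the acid sphingomyelinase Smpd1 by 0.09 and 0.33 (adjusted p of these 4 values 0.204 or more). A second Smpd1 probe, detected on all 8 arrays, gave -0.21 (adjusted p = 0.701) in REDD1 KO and 0.96 (1.94-fold, adjusted p = 0.0635) in w.t. epidermis. A further probe, also detected on all 8 arrays, gave 0.10 in REDD1 KO and 0.27 in w.t. epidermis. The probes thus differed in size of change and, in REDD1 KO, in its sign, with none called. Smpdl3b, a sphingomyelinase-like enzyme named here after its values were seen, had 5.35 and 6.10 in REDD1 KO FA arrays, against 6.63 and 7.66 in REDD1 KO vehicle arrays. Signals in w.t. epidermis were 6.57 and 7.25 with FA, against 7.21 and 7.25 with vehicle. The REDD1 KO FA arrays were thus the lowest, with a change of -1.42 (interval -2.25 to -0.59, adjusted p = 0.0676) that was not called.

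Of 4 ceramidases, Acer1 was called lower in both genotypes and Acer2 was called higher in the average alone. Acer1, an alkaline ceramidase of the endoplasmic reticulum with high expression in epidermis, had log2 signals of 10.78 and 10.64 in REDD1 KO FA arrays, against 11.82 and 11.80 in REDD1 KO vehicle arrays. In w.t. epidermis it had 10.90 and 10.99 with FA, against 11.75 and 11.81 with vehicle. FA and vehicle arrays were fully separated, and the replicates were close. Acer1 fell by 1.10 on the log2 scale (2.15-fold lower, interval -1.43 to -0.77, adjusted p = 0.00477) in REDD1 KO and by 0.83 (1.78-fold lower, interval -1.17 to -0.50, adjusted p = 0.0138) in w.t. epidermis, with an average of -0.97 (adjusted p = 0.00077). The w.t. call was lost without w.t. vehicle array 2 or w.t. FA array 1 or 2 (adjusted p = 0.0597, 0.109 and 0.0823), whereas the REDD1 KO and average calls were kept under every alternative run.

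Acer2, the alkaline ceramidase of the Golgi, had log2 signals of 10.30 and 10.59 in REDD1 KO FA arrays, against 8.92 and 9.41 in REDD1 KO vehicle arrays. The w.t. arrays had 9.40 and 10.16 with FA, against 8.93 and 7.73 with vehicle. FA arrays were the higher ones within each genotype, while the w.t. vehicle arrays differed from each other by more than the genotypes did. The average rise was 1.37 (2.58-fold, interval 0.75 to 1.98, adjusted p = 0.0122), with 1.28 in REDD1 KO and 1.45 in w.t. epidermis, neither of which was called (adjusted p = 0.105 and 0.0601). The average lost its call without w.t. FA array 2 (1.18, adjusted p = 0.0507), with no probe filter (0.0651) and with trended moderation (0.0595). Asah1, the acid ceramidase of lysosomes, and Acer3 were not called, with changes of 0.14 and -0.26 in REDD1 KO and 0.53 and -0.44 in w.t. epidermis.

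Sgpp2, a phosphatase of the endoplasmic reticulum that returns sphingosine 1-phosphate to sphingosine, showed the highest fitted rise of the members in w.t. epidermis. Its log2 signals were 4.38 and 4.59 in REDD1 KO FA arrays and 4.32 and 4.33 in REDD1 KO vehicle arrays, all below background. In w.t. epidermis they were 7.29 and 8.71 with FA, against 4.21 and 4.28 with vehicle, which were below background too. The probe thus gave a detected signal in w.t. FA arrays alone. In w.t. epidermis the FA signal was at least 10.3-fold that of vehicle (fitted difference 3.75, interval 2.93 to 4.58), and in REDD1 KO epidermis no fold is given because both groups were below background. The adjusted p was 0.00179 among probes that passed the filter, which Sgpp2 did through these same w.t. FA arrays. In a fit of all 25697 probes with no filter it was 0.0188. The fit pools the spread of all 4 groups. Replicate standard deviations were 1.0 in w.t. FA arrays, against 0.15 in REDD1 KO FA, 0 in REDD1 KO vehicle and 0.05 in w.t. vehicle arrays. Sgpp2 thus takes its narrow interval and low adjusted p-values partly from groups below background. Its paralog Sgpp1 changed by -0.05 in REDD1 KO and 0.01 in w.t. epidermis, and the sphingosine kinases Sphk1 and Sphk2 and the ceramide kinase Cerk, which phosphorylate sphingosine or ceramide, by -0.20 to 0.31 and -0.21 to 0.19, with no call.

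Among the enzymes that trim glycosphingolipids, Gba2, the glucosylceramidase outside lysosomes, rose in both genotypes. Its log2 signals were 7.59 and 7.72 in REDD1 KO FA arrays, against 7.05 and 6.80 in REDD1 KO vehicle arrays. In w.t. epidermis they were 7.62 and 7.68 with FA, against 6.68 and 6.46 with vehicle. FA arrays of both genotypes lay together above all vehicle arrays. The rise was 0.73 (1.66-fold, interval 0.36 to 1.10, adjusted p = 0.0416) in REDD1 KO and 1.08 (2.11-fold, interval 0.70 to 1.45, adjusted p = 0.00772) in w.t. epidermis, with an average of 0.90 (adjusted p = 0.00168) that was kept under every alternative run. The w.t. call was lost without w.t. FA array 1 or 2 (adjusted p = 0.0609 and 0.0709), and the REDD1 KO call without any 1 array of REDD1 KO or of w.t. FA (adjusted p between 0.0795 and 0.243) with the replicate number as a block (0.0552), with no probe filter (0.0510) and in a fit of only 4 arrays (0.0955).

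Neu2, the cytosolic sialidase, which removes sialic acid from gangliosides and glycoproteins, had log2 signals of 7.64 and 7.21 in REDD1 KO FA arrays, against 6.88 and 6.25 in REDD1 KO vehicle arrays. Signals in w.t. epidermis were 8.47 and 9.81 with FA, against 6.66 and 6.51 with vehicle. FA arrays were above vehicle arrays in both genotypes, with the w.t. FA arrays above all others. The rise was 2.56 (5.88-fold, interval 1.68 to 3.43, adjusted p = 0.00764) in w.t. epidermis and the change 0.86 (1.81-fold, interval -0.02 to 1.74, adjusted p = 0.265) in REDD1 KO epidermis. The average was 1.71 (adjusted p = 0.00466), and both calls were kept under every alternative run.

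Glb1, the lysosomal beta-galactosidase, had log2 signals of 7.81 and 7.48 in REDD1 KO FA arrays, against 8.67 and 8.18 in REDD1 KO vehicle arrays. In w.t. epidermis it had 7.93 and 8.07 with FA, against 8.32 and 8.18 with vehicle. Its FA arrays were below all vehicle arrays, with an average change of -0.51 (interval -0.84 to -0.19, adjusted p = 0.0466), -0.78 in REDD1 KO and -0.25 in w.t. epidermis (adjusted p = 0.0695 and 0.517). The call was lost without any of 6 single arrays (adjusted p up to 0.155), with no probe filter (0.0913), with median centring (0.0574) and without background correction (-0.38). Hexa and Arsa, further lysosomal hydrolases, and Neu3, the sialidase of the plasma membrane, were not called and changed by -0.04 to 0.17 in REDD1 KO and -0.53 to 0.12 in w.t. epidermis.

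Ugcg, which makes glucosylceramide from ceramide, changed by 0.08 (interval -0.30 to 0.45) in REDD1 KO and 0.09 (interval -0.29 to 0.46) in w.t. epidermis. Abca12, the transporter that loads glucosylceramide into lamellar bodies, had log2 signals of 6.50 and 6.34 in REDD1 KO FA arrays, against 6.2 and 6.35 in REDD1 KO vehicle arrays. The w.t. arrays had 6.81 and 6.99 with FA, against 6.05 and 6.0 with vehicle. The groups overlapped in REDD1 KO and were separated in w.t. epidermis. Abca12 rose by 0.88 (1.84-fold, interval 0.52 to 1.23, adjusted p = 0.0143) in w.t. epidermis and changed by 0.14 (adjusted p = 0.668) in REDD1 KO epidermis, with an average rise of 0.51 (adjusted p = 0.0172). The second Abca12 probe was detected on the 2 w.t. FA arrays alone, so that these arrays admitted it to the test. It gave 0.50 in w.t. epidermis (adjusted p = 0.0787) and is not separate evidence of a rise. The w.t. call was lost without w.t. vehicle array 2 or w.t. FA array 1 or 2 (adjusted p = 0.0598, 0.0662 and 0.109), and the average call without w.t. FA array 2 or REDD1 KO vehicle array 1 (0.0705 and 0.0639).

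**Figure D2:**
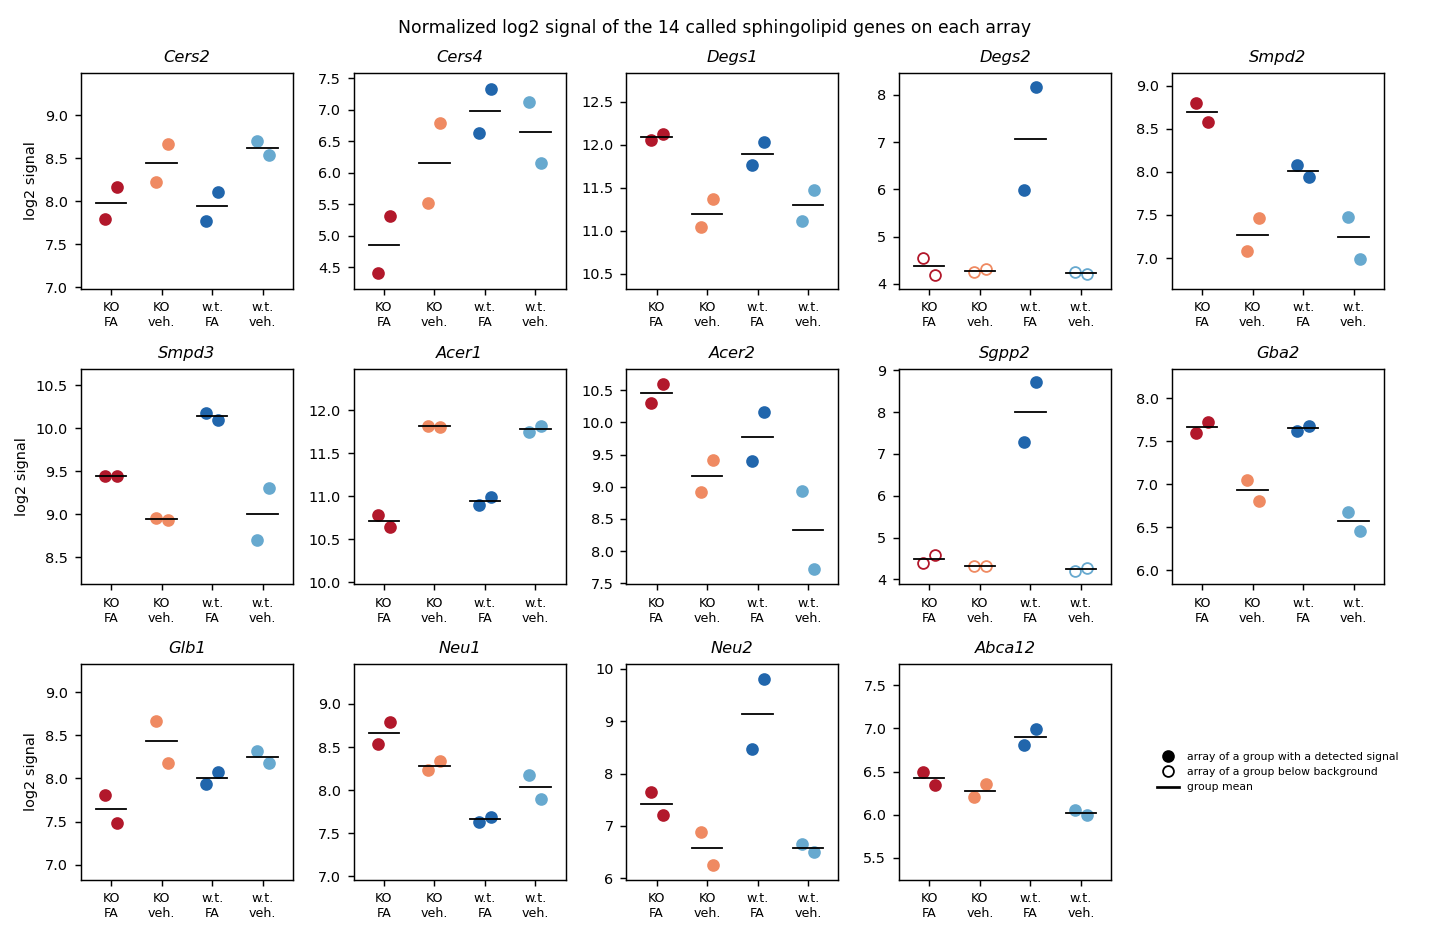
Normalized log2 signal (y axis, a scale of its own in each panel) of the 14 called members on each of 8 arrays, in the order REDD1 KO FA, REDD1 KO vehicle, w.t. FA and w.t. vehicle, with the group mean as a line. Open circles mark groups below background on both arrays, and Sgpp2 and Degs2 have filled circles in w.t. FA alone (7.29 and 8.71, and 5.98 and 8.16).

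Without FA, no sphingolipid gene was called between the genotypes. Between REDD1 KO vehicle and w.t. vehicle arrays, limma called 0 members higher and 0 lower, and 0 had an unadjusted p under 0.05, where 0.168% of all probes were called higher and 0.343% lower. The differences ran from -0.56 (Cers5, interval -1.21 to 0.10) to 0.83 (Acer2, interval -0.04 to 1.71), with a median of 0.04 against 0 over all probes.

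With FA, 1 member was higher (Neu1) and 4 were lower (Cers4, Degs2, Sgpp2 and Neu2) in REDD1 KO than in w.t. epidermis, where 3.14% of all probes were called higher and 4.02% lower. These were 2.86% and 11.4% of the members, or 2.17% and 10.9% of their probes, and the median difference was -0.14 against 0.02 over all probes. At an unadjusted p under 0.05, 4 members were higher and 11 lower, with Sgpp2 and Degs2 among the 11. The share of all probes at that threshold was not counted, so no excess is read from these numbers. Without Sgpp2 and Degs2, 1 of 33 was called higher (3.03%) and 2 of 33 lower (6.06%), with a median of -0.08. The w.t. FA arrays enter both this comparison and the FA effect in w.t. epidermis, so the low values of Sgpp2, Degs2 and Neu2 here and their rises there rest on the same arrays. Without the first REDD1 KO FA array, 1 member was called higher and 1 lower.

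The markers of sebaceous gland, a lipid-producing appendage, moved with this comparison. Of 7 sebaceous markers tested of 11 listed, 5 were lower in REDD1 KO FA than in w.t. FA arrays (median -1.36), and their summed signal was 2294 to 4588 in REDD1 KO FA and 7269 to 12360 in REDD1 KO vehicle arrays, against 7862 to 11251 in w.t. FA and 9888 to 12975 in w.t. vehicle arrays. The sebaceous markers Scd3 and Far2 were not detected. With FA, 5 of the 7 changed upward in w.t. epidermis (median 0.79), where Elovl3 was called higher (2.52, adjusted p = 0.0135). In REDD1 KO epidermis 0 of the 7 changed upward (median -0.81), and Mgst1 and Scd1 were called lower. The FA effect was lower in REDD1 KO than in w.t. epidermis for 7 of the 7, with 0 called. How much each genotype adds to the gap with FA was not tested. The summed signal follows the brightest gene, Scd1 (log2 11.02 to 13.40). The first REDD1 KO FA array, which was high in muscle genes, had the lowest mean log2 signal of sebaceous markers (5.79, against 6.44 on its replicate). Genes of terminal differentiation, which upper keratinocytes express, were lower too for 5 of 16 (median -0.44), with a summed signal of 83898 to 87038 in REDD1 KO FA arrays, against 98045 to 98616 in w.t. FA arrays. Of 5 hair follicle markers tested of 12, 1 was called lower with FA in REDD1 KO than in w.t. epidermis. This was Krt79, a keratin of the follicle opening (-3.09, adjusted p = 0.00997). The difference was positive for 2 of the 5 (up to 1.44), with 0 called higher. The part of these lists in the differences between genotypes was not tested, and in such bulk RNA fewer cells of a type and less RNA per cell cannot be told apart.

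Sgpp2 was at least 10.1-fold lower in REDD1 KO than in w.t. epidermis with FA (fitted difference -3.51, interval -4.34 to -2.69). Its adjusted p was 0.00207 among probes that passed the filter, to which the w.t. FA arrays admitted it, and 0.0190 with no filter. Degs2, admitted in the same way, was at least 5.29-fold lower (fitted difference -2.69, interval -3.90 to -1.48), with an adjusted p of 0.0220 among the filtered probes and 0.0894 with no filter. Its call was also lost without REDD1 KO FA array 1 or 2 (adjusted p = 0.0541 and 0.0885), without background correction (-1.13, adjusted p = 0.104), with an offset of 50 (-1.68, adjusted p = 0.0586) and with trended moderation (0.0956). Neu2 differed by -1.72 (3.28-fold lower, interval -2.59 to -0.84, adjusted p = 0.0346), which was lost without w.t. FA array 2 (-1.05, adjusted p = 0.162), without REDD1 KO FA array 1 or 2 (0.0603 and 0.143) and with the replicate number as a block (0.0503). The Neu2 call was also lost without background correction (-1.32, adjusted p = 0.0633), with no probe filter (0.112), with trended moderation (0.0759) and in a fit of only 4 arrays (0.0568).

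Cers4, a ceramide synthase for long acyl chains, had log2 signals of 4.41 and 5.32 in REDD1 KO FA arrays and 5.52 and 6.78 in REDD1 KO vehicle arrays. Signals in w.t. epidermis were 6.63 and 7.33 with FA and 7.12 and 6.16 with vehicle. REDD1 KO FA arrays were the lowest, 1 of these was below background, and the replicates of each group were far apart. The difference between REDD1 KO and w.t. epidermis was -2.11 with FA (interval -3.19 to -1.03, adjusted p = 0.0347) and -0.49 with vehicle, and the FA change was -1.28 (adjusted p = 0.182) in REDD1 KO and 0.33 in w.t. epidermis. The second Cers4 probe gave -0.90 with FA (adjusted p = 0.0712), and the call was lost without REDD1 KO FA array 1 (-1.66, adjusted p = 0.121) or w.t. FA array 1 or 2 (0.0941 and 0.206). It was also lost without background correction (-0.84, adjusted p = 0.0854), with an offset of 50 (-1.33, adjusted p = 0.0543), with no probe filter (0.118) and with trended moderation (0.106).

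Neu1, the lysosomal sialidase, had log2 signals of 8.53 and 8.79 in REDD1 KO FA arrays and 8.23 and 8.34 in REDD1 KO vehicle arrays. In w.t. epidermis it had 7.63 and 7.69 with FA and 8.17 and 7.90 with vehicle. The FA arrays were thus the highest in REDD1 KO and the lowest in w.t. epidermis. Neu1 was higher by 1.00 (2.00-fold, interval 0.62 to 1.38, adjusted p = 0.0122) in REDD1 KO than in w.t. epidermis with FA, a call that was lost without w.t. FA array 1 or 2 (adjusted p = 0.0832 and 0.0964) or REDD1 KO FA array 2 (0.0577). Smpd1 was not called by its brightest probe (-0.36, adjusted p = 0.255), whereas a second probe had -1.09 (adjusted p = 0.0397) and a further probe gave -0.62 (adjusted p = 0.116).

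**Figure D3:**
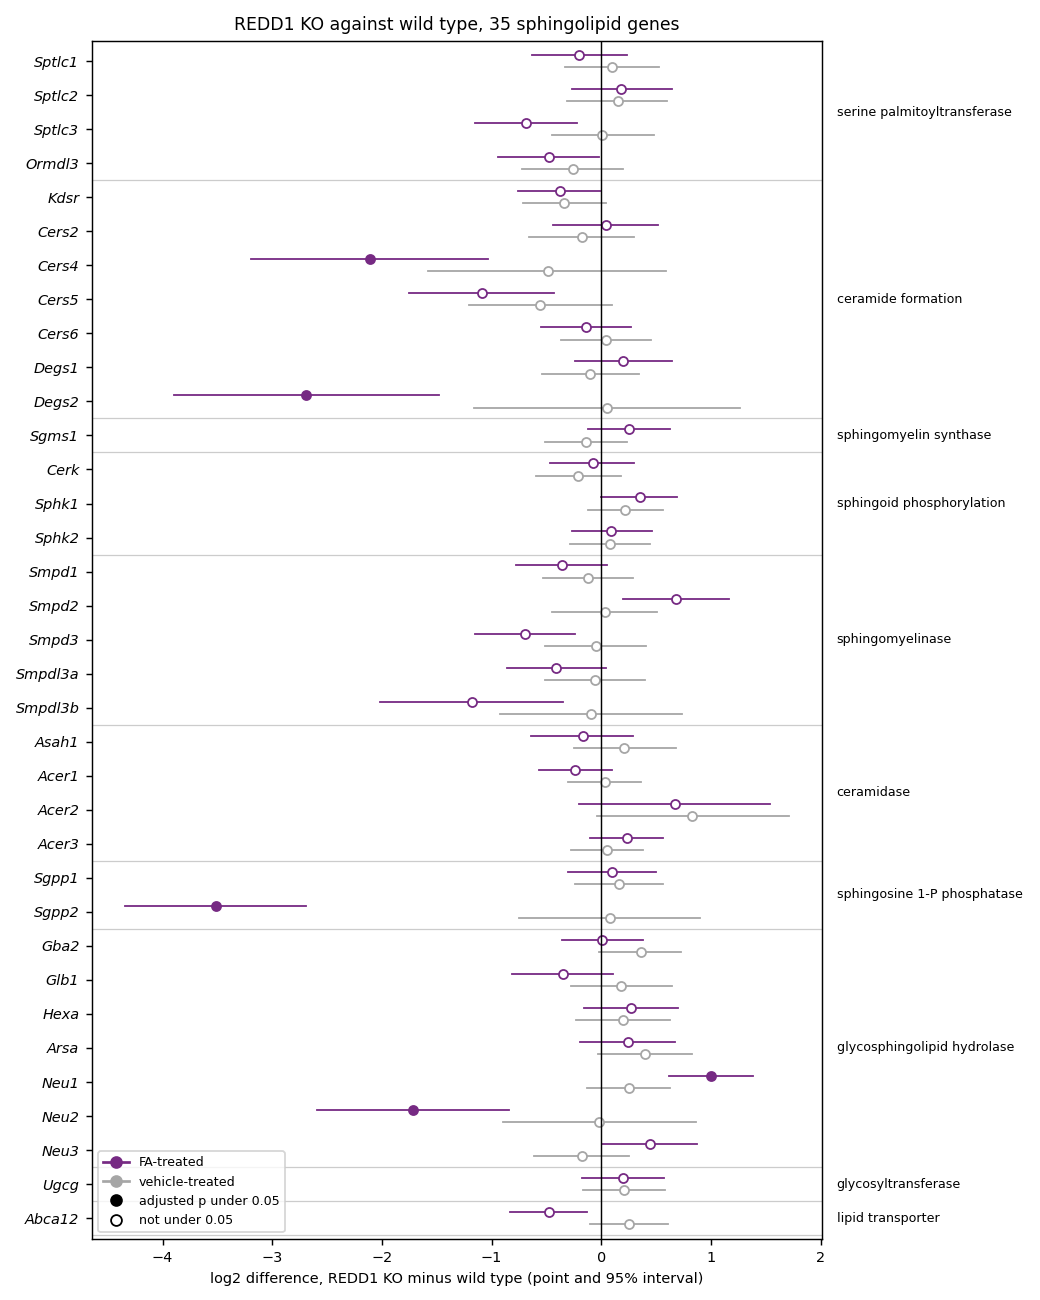
Log2 difference between REDD1 KO and w.t. epidermis (REDD1 KO minus w.t., x axis) of the 35 members (rows, grouped by role), as point and 95% interval for FA-treated (purple, upper) and vehicle-treated animals (gray, lower), 2 arrays per group. Filled points have an adjusted p under 0.05: Neu1 (1.00), Cers4 (-2.11), Degs2 (-2.69), Sgpp2 (-3.51) and Neu2 (-1.72) with FA, and none with vehicle.

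The interaction of FA and genotype (the FA effect in REDD1 KO minus that in w.t. epidermis) was called for 0 members with all 8 arrays, where 0.0305% of all probes were called in either direction. At an unadjusted p under 0.05, 2 members had a higher and 7 a lower FA effect in REDD1 KO than in w.t. epidermis. Sgpp2 and Degs2 are among the 7, and the share of all probes at that threshold was not counted. The median was -0.18 (-0.16 without Sgpp2 and Degs2) against 0.02 over all probes. Sgpp2 had -3.59 (interval -4.76 to -2.43, adjusted p = 0.138), Degs2 -2.74 (adjusted p = 0.354) and Neu2 -1.70 (adjusted p = 0.390). Without w.t. FA array 1 the difference was -4.30 for Sgpp2 and -3.83 for Degs2, and without w.t. FA array 2 it was -2.88 for Sgpp2. Each of these values rests on the single w.t. FA array left, and the w.t. FA arrays had admitted both genes. A rise called in w.t. and not in REDD1 KO epidermis was therefore not shown, with all 8 arrays, to differ between the genotypes.

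Further genes of the pathway, outside the 43 listed, were read from a list of 32, of which 20 were tested. With FA, 1 of 20 fell and 0 rose in REDD1 KO epidermis, and 3 rose and 0 fell in w.t. epidermis. Over all probes, 2.34% were called lower and 2.17% higher in REDD1 KO, and 3.17% lower and 3.18% higher in w.t. epidermis. Fa2h, the fatty acid 2-hydroxylase that makes hydroxylated ceramides, had log2 signals of 6.75 and 8.77 in REDD1 KO FA arrays and 10.18 and 11.33 in REDD1 KO vehicle arrays, against 11.26 and 11.66 in w.t. FA arrays and 11.65 and 10.80 in w.t. vehicle arrays. REDD1 KO FA arrays were below all others, with an FA change of -2.99 (adjusted p = 0.0276) and a difference from w.t. FA of -3.70 (adjusted p = 0.0113). The lower of these, 6.75, is from the first REDD1 KO FA array, which was high in muscle genes. Calls of genes outside the members, here and in the other lists, are given without the alternative settings. Among the rises in w.t. epidermis was Samd8, a sphingomyelin synthase-related enzyme (0.84, adjusted p = 0.0252). Gm2a, the activator of ganglioside degradation, rose by 0.78 (adjusted p = 0.0212). St3gal5, which makes the ganglioside GM3, had a fitted rise of 1.15 (adjusted p = 0.0252, no fold given). It was below background in both w.t. vehicle and both REDD1 KO FA arrays. Of its 3 arrays with a detected signal, 2 were the w.t. FA arrays, without which it would not have passed the filter. Between genotypes with FA, 4 of 20 were lower in REDD1 KO, where 4.02% of all probes were called lower, and with vehicle 0 differed. They were Fa2h, Sptssa, a small subunit of serine palmitoyltransferase (-0.97), Plekha8, a glucosylceramide transfer protein (-0.67), and St3gal5 (fitted -1.23). The St3gal5 value rests on the same w.t. FA arrays that admitted it.

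Genes of acylceramide formation and lamellar bodies, 14 of 14 tested, gave 0 calls with FA in REDD1 KO and 1 in w.t. epidermis, where Sdr9c7, a dehydrogenase that acts on acylceramides, rose by 1.16 (adjusted p = 0.00729). With FA, 2 of 14 were lower in REDD1 KO than in w.t. epidermis: Elovl4, which elongates ultra-long fatty acids (-1.11, adjusted p = 0.0461), and Slc27a4, a fatty acid transporter (-0.99, adjusted p = 0.0392). Of 18 lysosomal genes outside the pathway, 1 fell in REDD1 KO and 2 fell in w.t. epidermis with FA, with Pla2g15, a lysosomal phospholipase, in both (-0.75 and -1.07). Calls of lysosomal genes between genotypes with FA were 1 higher (Lipa, the acid lipase, 1.01) and 1 lower (Ctsl, a cathepsin, -1.02). Over all probes, 3.14% were called higher and 4.02% lower in that comparison. With FA, 2.17% were called higher and 2.34% lower in REDD1 KO, and 3.18% and 3.17% in w.t. epidermis. Whether counts of 1 or 2 genes in these lists differ from such shares was not tested.

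Markers of some other cell types also fell with FA. Of 8 Langerhans cell and macrophage markers tested of 13, 6 fell in REDD1 KO (median -2.20) and 5 in w.t. epidermis (median -1.65), and their summed signal was 1075 to 2057 in REDD1 KO FA arrays, against 10729 to 11433 in REDD1 KO vehicle arrays, and 1787 to 2134 in w.t. FA arrays, against 8100 to 10510 in w.t. vehicle arrays. The sum follows the MHC class II presentation genes H2-Ab1, H2-Eb1, H2-Aa and Cd74, which were called in both genotypes, as was Adgre1. The Langerhans cell marker Cd207 was called in REDD1 KO (-1.53, adjusted p = 0.027) and not in w.t. epidermis (-1.06, adjusted p = 0.0764). Lower expression of these genes and fewer such cells cannot be told apart here. T cell markers, 5 tested of 8, fell for 3 of 5 in REDD1 KO and 2 of 5 in w.t. epidermis. In w.t. epidermis 1 of the 5 changed upward (0.45) and was not called. The skeletal muscle genes changed upward for 7 of 7 in REDD1 KO (median 1.72) and in w.t. epidermis (median 0.68), with 0 called. Over all probes, 2.34% were called lower and 2.17% higher in REDD1 KO, and 3.17% lower and 3.18% higher in w.t. epidermis. Of 5 hair follicle markers, 2 fell in REDD1 KO (Krt17, -0.79, and Krt79, -2.63). In w.t. epidermis 1 fell (Krt17, -0.66), and in the average 3 did. In each genotype 1 of the 5 changed upward, by 1.51 in REDD1 KO and 0.15 in w.t. epidermis, and was not called. The summed signal of the 5 was 6870 to 7484 in REDD1 KO FA arrays, against 12457 to 13432 in REDD1 KO vehicle arrays. In w.t. arrays it was 8101 to 10631 with FA, against 13575 to 14570 with vehicle. This sum follows Krt17, the brightest of the 5 (log2 12.63 to 13.60). Genes of terminal differentiation gave 1 higher and 2 lower in REDD1 KO, and 4 higher and 0 lower in w.t. epidermis, and of basal keratinocyte genes 0 of 9 were called with FA in either genotype. The first REDD1 KO FA array had the lowest mean log2 signal of the Langerhans cell and macrophage, T cell and hair follicle lists. These means were 6.61, 5.56 and 6.98, against 7.40, 6.29 and 7.72 on its replicate. The part of these cell types in the changes of the members, among them the falls of Acer1, Cers2 and Glb1, was not tested.

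**Figure D4:**
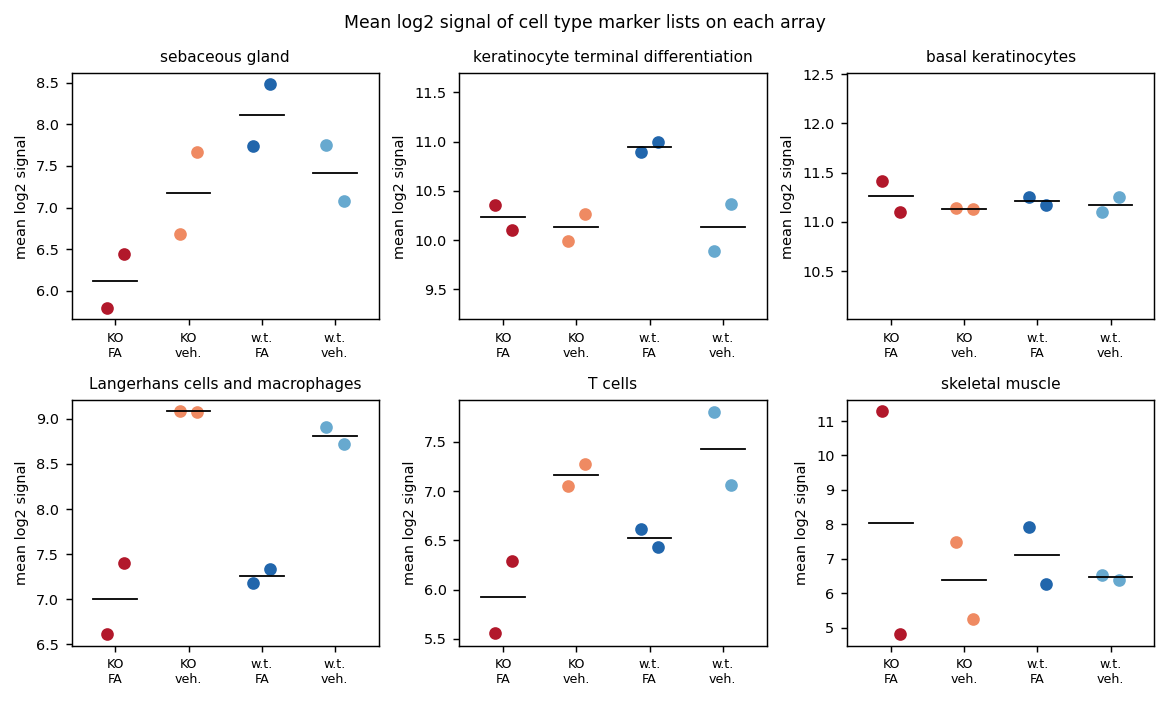
Mean log2 signal (y axis, a scale of its own in each panel) of the tested genes of 6 marker lists on each array, in the order REDD1 KO FA, REDD1 KO vehicle, w.t. FA and w.t. vehicle, with the group mean as a line. The sebaceous list had 5.79 and 6.44 in REDD1 KO FA arrays and 6.68 to 8.48 elsewhere, and the first REDD1 KO FA array was high in the muscle list (11.30).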

How the data were processed

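The authors deposited raw bead intensities for 25697 probes (plus 832 lines of control beads), neither background-subtracted nor normalized, each with a detection p-value. They also deposited log2 values made with limma's neqc (background correction and quantile normalization with control probes), version not given in the sources used here. Two-sided tests used the deposited log2 values in limma 3.58.1 (R 4.3.3), fitting 8 arrays with a mean for each group, moderated variances (5.08 prior on 4 residual degrees of freedom) and Benjamini-Hochberg adjustment over 13131 probes, in 6 comparisons. The code was tested on simulated data. For the alternatives, neqc was rerun with the last 798 control lines as negative controls and 34 other controls, and gave the deposited values within 5e-09. There were 2 broken text lines, which were left out.

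Symbols came from the platform annotation, updated through entrez number (23962 probes), accession (9 probes) or kept (7 probes). Where a gene had several tested probes (9 members), the brightest on average was used. Values are given for every member called in any comparison and for the 3 with the largest FA change in each role, and Sptlc3 and Smpdl3b were added after their values were seen. The members and lists were chosen with earlier results of these data known. A group was below background when neither array was detected. A fold against it is a lower bound, set by the dimmest detected signal of each array. Correlations and p-values rest on 2 arrays per group, which limits the precision. For Sgpp2 and Degs2 the pooled variance draws on groups below background. Their intervals and p-values in every comparison with w.t. FA arrays thus understate the spread of those arrays. Alternatives were rebuilt neqc values, an offset of 50, values without background correction, median centring, other probe filters, only the 4 arrays compared, a replicate block, trended and robust moderation, array weights, other probes and leaving out each array.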

Additional observations from a re-analysis of the deposited data

Results flagged for a closer look

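Sptlc3 and Neu1 were singled out because both FA arrays lay below both vehicle arrays in one genotype and above them in the other. For Sptlc3, the FA effect in REDD1 KO minus that in w.t. epidermis was -0.70, with -0.24 in REDD1 KO and 0.46 in w.t. epidermis. For Neu1 it was 0.75, with 0.37 in REDD1 KO and -0.37 in w.t. epidermis. The difference was tested in limma and neither passed after adjustment (adjusted p = 0.487 and 0.390), with 2 arrays per group.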

How the results depend on the processing

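Under the alternative settings, 0 of 28 single calls changed direction. In REDD1 KO epidermis, 4 members were called with FA, against 2 with no probe filter. Between genotypes with FA, 5 were called, against 2 without background correction, 3 with an offset of 50 and 2 with no probe filter. Among probes detected on all 8 arrays, 3 were called. Sgpp2, Degs2 and Cers4 have no value there, so these 3 include a member outside the 5. Leaving out 1 array at a time, the calls ranged from 2 to 5 for FA in REDD1 KO epidermis, from 3 to 8 for FA in w.t. epidermis, from 2 to 8 between genotypes with FA and from 0 to 2 for the genotype difference. The count of 7 for FA in w.t. epidermis was 3 without w.t. FA array 1, 3 without w.t. FA array 2 and 4 without w.t. vehicle array 2. Of 28 single calls, 26 were kept with the replicate number as a block, and the counts with it were 4 in REDD1 KO, 7 in w.t. epidermis and 13 in the average. The replicate numbers were not taken as pairs, since the correlation of replicate differences was over 0.1 for 3 of 6 pairs of groups and -0.107 to 0.252 over all 6. Dim probes limit the folds of Sgpp2 and Degs2 to lower bounds.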
